A study of Homo sapiens with 15 samples.

Results

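The genes described are 10 regulators of programmed cell death: 8 members of the BCL2 family (PMAIP1, BBC3, BCL2L11, BID, BAX, BAK1, BCL2L1 and MCL1) and the TRAIL receptors TNFRSF10A and TNFRSF10B. They were chosen by name out of 18377 genes measured, and PMAIP1 and TNFRSF10B were known to rise with a mimic when they were chosen, so both are described without a test and the other 8 were tested. The samples were 15 Affymetrix arrays (Human Gene 1.0 ST) of PC3 and DU145, both prostate cancer cell lines. PC3 comes from a bone metastasis, per the labels. Each line was left untransfected, or was reverse transfected with Lipofectamine 2000 and 20 nM of a scrambled, a miR-224 or a miR-452 mimic. A mimic is a synthetic RNA that supplies the mature microRNA to the cell. The medium was changed 6 h after transfection, and RNA was taken at 48 h. Every group had 2 arrays except DU145 with the scrambled mimic, which had 1 because the submitters left out its second array for poor performance.

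Cells die by the mitochondrial route when the effectors BAX and BAK1 open the outer mitochondrial membrane. Guardians such as BCL2L1 (BCL-XL) and MCL1 hold the effectors back, and BH3-only proteins such as PMAIP1 (NOXA), BBC3 (PUMA), BCL2L11 (BIM) and BID bind and neutralise the guardians or activate the effectors. In the other route the cytokine TRAIL engages the death receptors TNFRSF10A (DR4) and TNFRSF10B (DR5), which activate caspase 8, and caspase 8 can cleave BID and so connect both routes. DU145 is known for a frameshift that removes the BAX protein.

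The mature microRNAs are shown because the mimics were designed to supply them. The labels do not name the arm of the hairpin, so both arms are given, 5′ to 3′ from RefSeq on GRCh38.p14, with the seed (bases 2 to 8, which pair with a target) in capitals. All 4 come from the minus strand of the X chromosome, and no seed is shared.
hsa-miR-224-5p (chrX:151958628-151958652): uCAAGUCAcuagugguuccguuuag
hsa-miR-224-3p (chrX:151958584-151958606): aAAAUGGUgcccuagugacuaca
hsa-miR-452-5p (chrX:151959678-151959699): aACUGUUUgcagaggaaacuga
hsa-miR-452-3p (chrX:151959634-151959655): cUCAUCUGcaaagaaguaagug

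Values are log2 levels as deposited, and each difference is on the log2 scale with limma's standard error. Each member was read by 1 feature of the array, a set of probes for 1 transcript. Array medians ran from 6.94 to 7.05 for PC3 and from 6.51 to 6.67 for DU145, and across features the arrays of a group had r of at least 0.992. The lines were normalized separately, so levels are compared within a line. Of 4 epithelial markers, keratin KRT8 lay between 11.22 and 11.56 in PC3. In DU145 KRT8 read 12.12 and 12.10 in untransfected cells, 12.17 on the scrambled array, and 11.68 and 11.71 with miR-224. KRT18 read 11.28 and 11.17 in untransfected DU145 and 10.83 and 10.96 with miR-224. CDH1 lay between 6.73 and 7.30 in PC3. EPCAM moved with the mimics. In PC3 it read 8.18 and 7.87 in untransfected cells and 7.63 and 7.33 with the scrambled mimic. It read 6.85 and 7.11 with miR-224, and 8.98 and 9.01 with miR-452. In DU145 it read 9.02 and 9.07 in untransfected cells, 8.71 on the scrambled array, and 7.74 and 7.27 with miR-224. With miR-224 against untransfected DU145 cells, limma called 3 of the 4 markers lower and 0 higher, beside 21.0% of all genes in either direction. The fibroblast marker COL1A1 lay between 8.25 and 8.63 in PC3. The part of these markers in the values below was not tested. KLK3, an androgen-driven prostate gene that both lines are known to lack, lay between 5.59 and 6.62, and the 3 leukocyte and 3 endothelial markers lay between 4.96 and 6.66. Nothing in the labels states that the arrays of a group came from separate cultures, so the p-values below cover the spread between arrays and no more. A level from bulk RNA cannot tell a lower share of expressing cells apart from less RNA per cell. The mimic comparisons of a line share their control arrays, so their values are given side by side. No group received the transfection reagent without a mimic. A difference of any mimic, the scrambled one included, from untransfected cells therefore cannot be told apart from an effect of the transfection procedure.

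Against the scrambled mimic, TNFRSF10B and PMAIP1 had the largest differences of the 10 genes with both mimics in PC3 and with miR-452 in DU145. TNFRSF10B was highest with miR-224 in PC3 and in DU145. PMAIP1 was highest with miR-224 in PC3 and with miR-452 in DU145. Of the 8 tested members, MCL1 and BAK1 rose with miR-224 over the scrambled mimic in PC3, and both calls depended on single arrays. Neither passed with miR-224 against untransfected PC3 cells (0.03 ± 0.10 for MCL1 and 0.23 ± 0.15 for BAK1). None of the 8 passed with miR-224 in DU145 or with miR-452 in either line when set against the scrambled mimic. Against untransfected cells BBC3 passed as higher with the scrambled mimic in both lines, with miR-452 in both lines and with miR-224 in DU145.

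TNFRSF10B, a death receptor for TRAIL (feature 8149733), read 9.46 and 9.45 in untransfected PC3, 9.24 and 9.06 with the scrambled mimic, 9.62 and 9.54 with miR-452, and 10.26 and 10.40 with miR-224. The miR-224 arrays stood well above all others, and no groups overlapped. Against the scrambled mimic the difference was 1.17 ± 0.088 with miR-224, a 2.26-fold higher level, and 0.43 ± 0.088 with miR-452. Against untransfected cells it was 0.87 ± 0.088 with miR-224 and 0.12 ± 0.088 with miR-452. In DU145, TNFRSF10B read 9.05 and 9.04 in untransfected cells, 8.88 on the scrambled array, 9.26 and 9.41 with miR-452, and 9.55 and 9.53 with miR-224. The order of the groups was the one seen in PC3, with no overlap, although the scrambled array was level with untransfected cells after quantile normalization (0.01, against -0.16 as deposited). The miR-224 difference in DU145 was 0.66 ± 0.11 against the scrambled array (1.58-fold) and 0.50 ± 0.087 against untransfected cells. The miR-452 difference was 0.45 ± 0.11 and 0.29 ± 0.087 against the same controls. Quantile normalization raised the miR-452 differences from untransfected cells to 0.27 in PC3 and 0.51 in DU145. The rise with miR-224 over the scrambled mimic was 0.52 ± 0.14 larger in PC3 than in DU145, and that with miR-452 differed by -0.03 ± 0.14.

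TNFRSF10A, the other TRAIL receptor with a death domain (feature 8149762), stayed within 7.59 and 7.90 on the 8 PC3 arrays and within 7.51 and 7.95 on the 7 DU145 arrays. It passed in none of the 12 comparisons within a line. Its largest difference was 0.35 ± 0.12 for miR-452 over the single scrambled array in DU145 (adjusted p = 0.191). In PC3 the difference with miR-224 over the scrambled mimic was 0.18 ± 0.11 (adjusted p = 0.314).

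**Figure D1:**
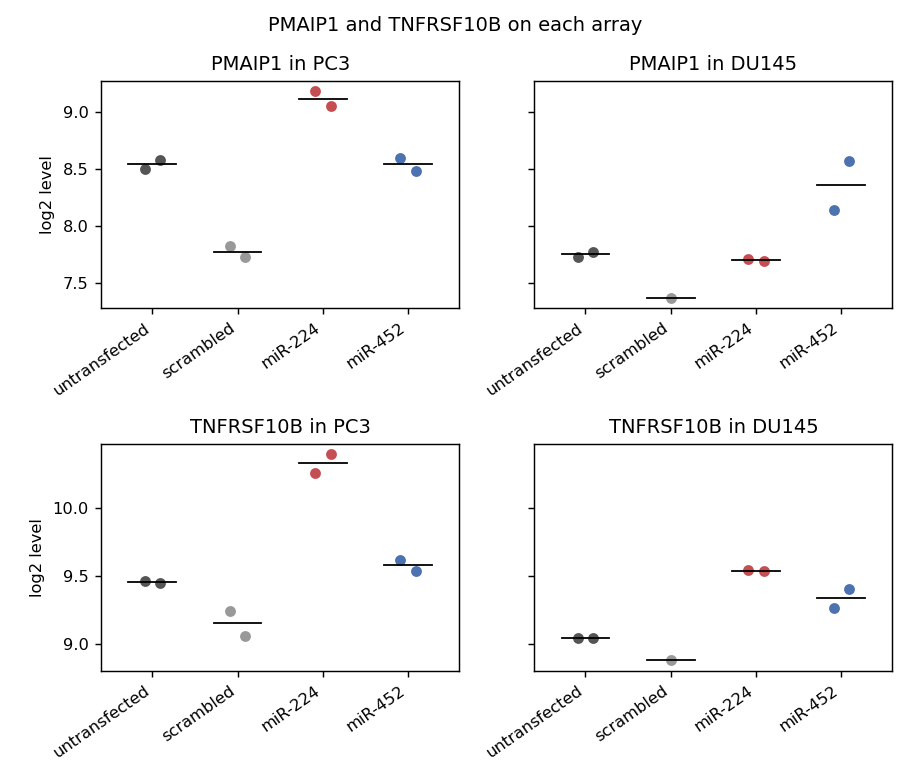
Deposited log2 levels of PMAIP1 and TNFRSF10B on each array by treatment, with PC3 on the left and DU145 on the right; points are arrays and lines are group means (n = 2, DU145 scrambled n = 1). TNFRSF10B is highest with miR-224 in both lines, whereas PMAIP1 is highest with miR-224 in PC3 (9.18 and 9.05) and with miR-452 in DU145 (8.14 and 8.57).

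Among the BH3-only genes, PMAIP1 encodes NOXA, which binds MCL1 and marks it for destruction. PMAIP1 (feature 8021470) read 8.50 and 8.57 in untransfected PC3, 7.82 and 7.72 with the scrambled mimic, 8.59 and 8.48 with miR-452, and 9.18 and 9.05 with miR-224. The scrambled arrays were the lowest and the miR-224 arrays the highest, while the miR-452 arrays overlapped those of untransfected cells. The control therefore changed what a difference showed. With miR-224 it was 1.34 ± 0.085 against the scrambled mimic and 0.58 ± 0.085 against untransfected cells. With miR-452 it was 0.77 ± 0.085 against the scrambled mimic and 0.0008 ± 0.085 against untransfected cells (0.15 after quantile normalization). The scrambled mimic itself stood 0.77 below untransfected cells (-0.77 ± 0.085).

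In DU145, PMAIP1 read 7.72 and 7.77 in untransfected cells, 7.37 on the scrambled array, 7.71 and 7.69 with miR-224, and 8.14 and 8.57 with miR-452. The miR-452 arrays were the highest and also the farthest apart. Their difference was 0.99 ± 0.16 over the scrambled array and 0.61 ± 0.13 over untransfected cells. It ranged from 0.77 to 1.20 over the scrambled array and from 0.39 to 0.82 over untransfected cells when single arrays were left out; the lower values came without miR-452 array c, which moved the second by over 1.5 times. With miR-224 the difference was 0.33 ± 0.16 over the scrambled array and -0.05 ± 0.13 against untransfected cells, and the latter turned to 0.11 after quantile normalization. The miR-224 difference over the scrambled mimic was 1.01 ± 0.18 larger in PC3 than in DU145, and the miR-452 difference was -0.22 ± 0.18 by the same measure.

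The start of PMAIP1 is shown because the gene is a known target of stress-induced ATF and CREB factors. The window is the 300 bases from 250 before to 50 after the RefSeq start (GRCh38.p14, chr18:59899746-59900045, plus strand), with capitals for the 1 match to the ATF/CREB core TGACGT or its complement ACGTCA.
PMAIP1 promoter: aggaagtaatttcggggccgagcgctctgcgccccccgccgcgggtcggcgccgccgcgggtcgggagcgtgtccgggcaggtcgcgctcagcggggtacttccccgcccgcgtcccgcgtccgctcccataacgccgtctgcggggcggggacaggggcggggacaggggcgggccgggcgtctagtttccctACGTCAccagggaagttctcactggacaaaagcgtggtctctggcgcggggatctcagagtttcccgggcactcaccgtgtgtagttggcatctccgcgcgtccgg
The first base of the match lay at position -56 from the start. Of 35116 RefSeq promoter windows of that length, 7.98% held this motif on either strand. Windows of 7 members were searched, and PMAIP1 was the one of these with an ATF/CREB match. TNFRSF10A, TNFRSF10B and MCL1 were not searched, so the match does not set PMAIP1 apart from TNFRSF10B. The same windows were searched for an interferon element core and a GC box core. BBC3 alone held the interferon element core, with 2 matches, and 3.57% of all windows held it. The GC box core was common, in 45.0% of all windows. A match describes the letters only. ATF4, the regulator of the amino acid stress response, read 8.37 and 8.45 in untransfected PC3, 8.36 and 8.19 with the scrambled mimic, 8.18 and 8.38 with miR-224, and 7.90 and 7.83 with miR-452. In PC3 the ATF4 arrays with miR-224 overlapped the scrambled arrays, and ATF4 fell with miR-452 (-0.41 ± 0.094, adjusted p = 0.027). That call was lost without scrambled array b or either miR-452 array, with the difference between -0.50 and -0.32. These are RNA levels of ATF4, and the part of ATF4 in the PMAIP1 values was not tested.

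BBC3 encodes PUMA, which binds all guardians. BBC3 (feature 8037872) read 7.31 and 7.54 in untransfected PC3, 8.0 and 7.77 with the scrambled mimic, 7.67 and 7.54 with miR-224, and 7.83 and 7.70 with miR-452. In DU145 it read 7.08 and 7.13 in untransfected cells, 7.71 on the scrambled array, 7.46 and 7.62 with miR-224, and 7.78 and 7.41 with miR-452. Untransfected cells had the lowest mean and the scrambled mimic the highest mean in both lines. Over untransfected cells BBC3 was higher by 0.46 ± 0.11 with the scrambled mimic in PC3 (adjusted p = 0.02) and by 0.60 ± 0.15 in DU145 (adjusted p = 0.0373). With miR-452 it was higher by 0.33 ± 0.11 in PC3 (adjusted p = 0.0444) and by 0.49 ± 0.12 in DU145 (adjusted p = 0.0212), and with miR-224 by 0.43 ± 0.12 in DU145 (adjusted p = 0.0372). KLK3, which both lines are known to lack, and KLK2 also read higher than in untransfected cells. In DU145 their median difference was 0.39 with the scrambled mimic, 0.31 with miR-224 and 0.39 with miR-452. In PC3 the medians were 0.18, 0.13 and 0.21 in the same order. The part of such a shift in the BBC3 values was not tested. The 5 BBC3 calls rest on few arrays. Without untransfected array b in PC3 the scrambled and miR-452 differences fell to 0.34 and 0.22, with adjusted p of 0.218 and 0.316. The PC3 scrambled call was also lost without scrambled array b (0.34), and the PC3 miR-452 call without any 1 of the miR-224 or miR-452 arrays (0.27 to 0.40). Both were lost with each feature tested by itself, and the miR-452 call also with replicate letters taken as a block. In DU145 all 3 calls were lost without either untransfected array (0.41 to 0.63) and with replicate letters taken as a block. The miR-224 call was also lost without either miR-224 array (0.52 and 0.35), and the miR-452 call without miR-452 array a (0.30). Against the scrambled mimic, BBC3 stood 0.28 ± 0.11 lower with miR-224 in PC3 (adjusted p = 0.101), and this passed after quantile normalization (-0.33, adjusted p = 0.0295). Quantile normalization ended the DU145 calls with miR-224 (0.51, adjusted p = 0.0592) and the scrambled mimic (0.66, adjusted p = 0.0697) over untransfected cells.

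BCL2L11 encodes BIM, an activator of BAX and BAK1. BCL2L11 (feature 8044375) read 7.10 and 7.04 in untransfected DU145, 6.58 on the scrambled array, 6.76 and 6.93 with miR-224, and 6.50 and 6.65 with miR-452. All transfected DU145 arrays were below both untransfected arrays. The scrambled and miR-452 arrays lay within the range of the leukocyte and endothelial markers. Their BCL2L11 signal was therefore not shown to lie above background. Against untransfected cells it fell with miR-452 (-0.49 ± 0.096, adjusted p = 0.00855) and with the scrambled mimic (-0.49 ± 0.12, adjusted p = 0.0329), while the miR-224 difference of -0.23 ± 0.096 did not pass (adjusted p = 0.113). Both calls were lost without either untransfected array, with differences of -0.46 and -0.52 for miR-452 and of -0.47 and -0.52 for the scrambled mimic. They were also lost with replicate letters taken as a block. The scrambled call was also lost after quantile normalization (-0.50, adjusted p = 0.0557). In PC3 the 8 arrays lay between 7.22 and 7.50 and BCL2L11 passed in no comparison.

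BID, which caspase 8 cleaves to an active form (feature 8074261), read 8.69 and 8.71 in untransfected PC3, 8.59 and 8.50 with the scrambled mimic, 8.52 and 8.43 with miR-224, and 8.85 and 8.69 with miR-452. The miR-224 arrays overlapped the scrambled arrays and the miR-452 arrays overlapped those of untransfected cells, and BID was lower with miR-224 than with miR-452 (-0.30 ± 0.085, adjusted p = 0.0296). That call was lost without either miR-224 array (-0.34 and -0.25) or without miR-452 array b (-0.22). It was also lost with each feature tested by itself and with replicate letters taken as a block. In DU145 BID read 9.38 and 9.56 in untransfected cells, 9.56 on the scrambled array, 9.45 and 9.40 with miR-224, and 9.23 and 9.31 with miR-452. Here miR-452 had the lowest arrays, 0.29 ± 0.11 below the scrambled array (adjusted p = 0.24).

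**Figure D2:**
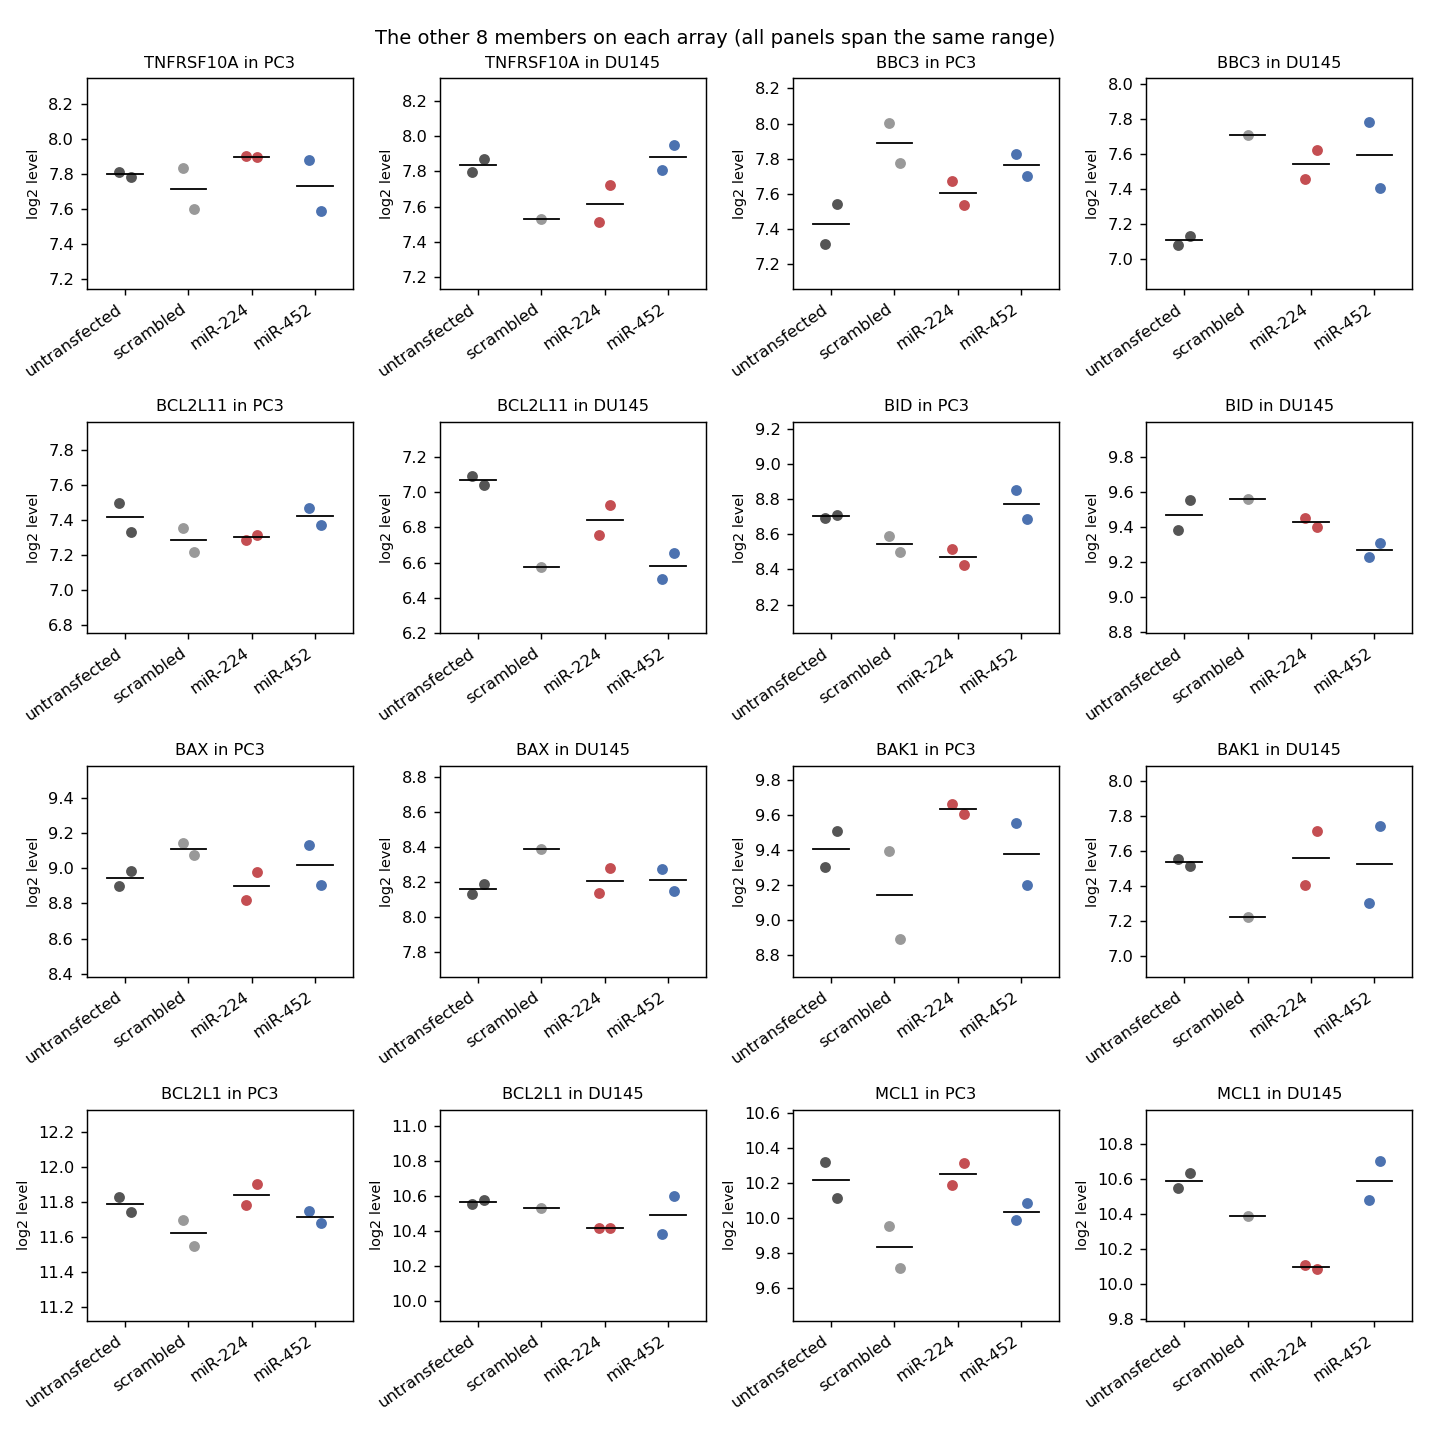
Deposited log2 levels of the other 8 members on each array by treatment and line; points are arrays, lines are group means (n = 2, DU145 scrambled n = 1), and every panel spans the same number of log2 units around its own centre. MCL1 with miR-224 lies beside untransfected cells in the upper part of the PC3 panel (10.19 and 10.31) and at the bottom of the DU145 panel (10.11 and 10.08).

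The effectors are BAK1 and BAX. BAK1, which sits in the outer mitochondrial membrane (feature 8125766), read 9.30 and 9.51 in untransfected PC3, 9.39 and 8.89 with the scrambled mimic, 9.66 and 9.60 with miR-224, and 9.55 and 9.20 with miR-452. The scrambled arrays were far apart, and the miR-224 arrays lay above every other PC3 array. BAK1 rose with miR-224 over the scrambled mimic (0.49 ± 0.15, adjusted p = 0.04961). The call was lost under 10 of 14 alternatives: without scrambled array c the difference was 0.24 (adjusted p = 0.328), without either miR-224 array it was 0.46 and 0.52, and without either untransfected array it stayed at 0.49 with adjusted p = 0.0755. Quantile normalization was among the 10 that ended it (0.40, adjusted p = 0.0855). BAK1 had no call in DU145, where its arrays ran from 7.22 to 7.74.
BAX, which moves from the cytosol to mitochondria (feature 8030158), ran from 8.82 to 9.15 on the PC3 arrays and from 8.13 to 8.39 on the DU145 arrays. Its scrambled groups had the highest mean in both lines, and it passed in no comparison. With miR-224 it was -0.21 ± 0.096 against the scrambled mimic in PC3 (adjusted p = 0.172), which passed after quantile normalization (-0.31, adjusted p = 0.0329). So did the scrambled mimic over untransfected cells in PC3 (0.32, adjusted p = 0.0426, against 0.17 as deposited).

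Of the guardians, MCL1 encodes a short-lived protein that binds NOXA. Its RNA rose with miR-224 against the scrambled mimic in PC3 and fell with miR-224 against untransfected cells in DU145. MCL1 (feature 7919751) read 10.32 and 10.11 in untransfected PC3, 9.96 and 9.71 with the scrambled mimic, 10.19 and 10.31 with miR-224, and 9.99 and 10.08 with miR-452. The scrambled arrays were the lowest, and the miR-224 arrays overlapped those of untransfected cells. MCL1 rose with miR-224 over the scrambled mimic (0.41 ± 0.10, adjusted p = 0.018) and was lower with the scrambled mimic than in untransfected cells (-0.38 ± 0.10, adjusted p = 0.0344), while miR-224 differed from untransfected cells by 0.03 ± 0.10. The first call was lost without scrambled array c (0.29) or miR-224 array b (0.35). It was also lost with each feature tested by itself and with replicate letters taken as a block. The second call was lost without scrambled array c (-0.26) or untransfected array b (-0.28). After quantile normalization it was lost too (-0.25, adjusted p = 0.0814), as it was with each feature tested by itself.

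In DU145, MCL1 read 10.55 and 10.63 in untransfected cells, 10.39 on the scrambled array, 10.11 and 10.08 with miR-224, and 10.48 and 10.70 with miR-452. The miR-224 arrays were the lowest of the line. MCL1 fell with miR-224 against untransfected cells (-0.49 ± 0.098, adjusted p = 0.0093) and was lower than with miR-452 (-0.49 ± 0.098, adjusted p = 0.019); against the scrambled array the difference was -0.29 ± 0.12 (adjusted p = 0.32). The first of these calls was lost without either untransfected array (-0.54 and -0.45) or miR-224 array c (-0.48), and the second without either miR-224 array (-0.50 and -0.48). The first was also lost with replicate letters taken as a block, and the second with each feature tested by itself. The miR-224 difference over the scrambled mimic was 0.70 ± 0.17 larger in PC3 than in DU145 (adjusted p = 0.0566), and it passed in 6 of 19 alternatives, among them quantile normalization (0.59, adjusted p = 0.0364).

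BCL2L1, the gene of BCL-XL (feature 8065569), ran from 11.55 to 11.90 on the PC3 arrays and from 10.38 to 10.60 on the DU145 arrays, and it passed in no comparison. With miR-224 it was 0.22 ± 0.086 over the scrambled mimic in PC3 (adjusted p = 0.108), where it passed with trend and robust moderation (adjusted p = 0.0339), and -0.12 ± 0.12 in DU145 (adjusted p = 0.826).

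**Figure D3:**
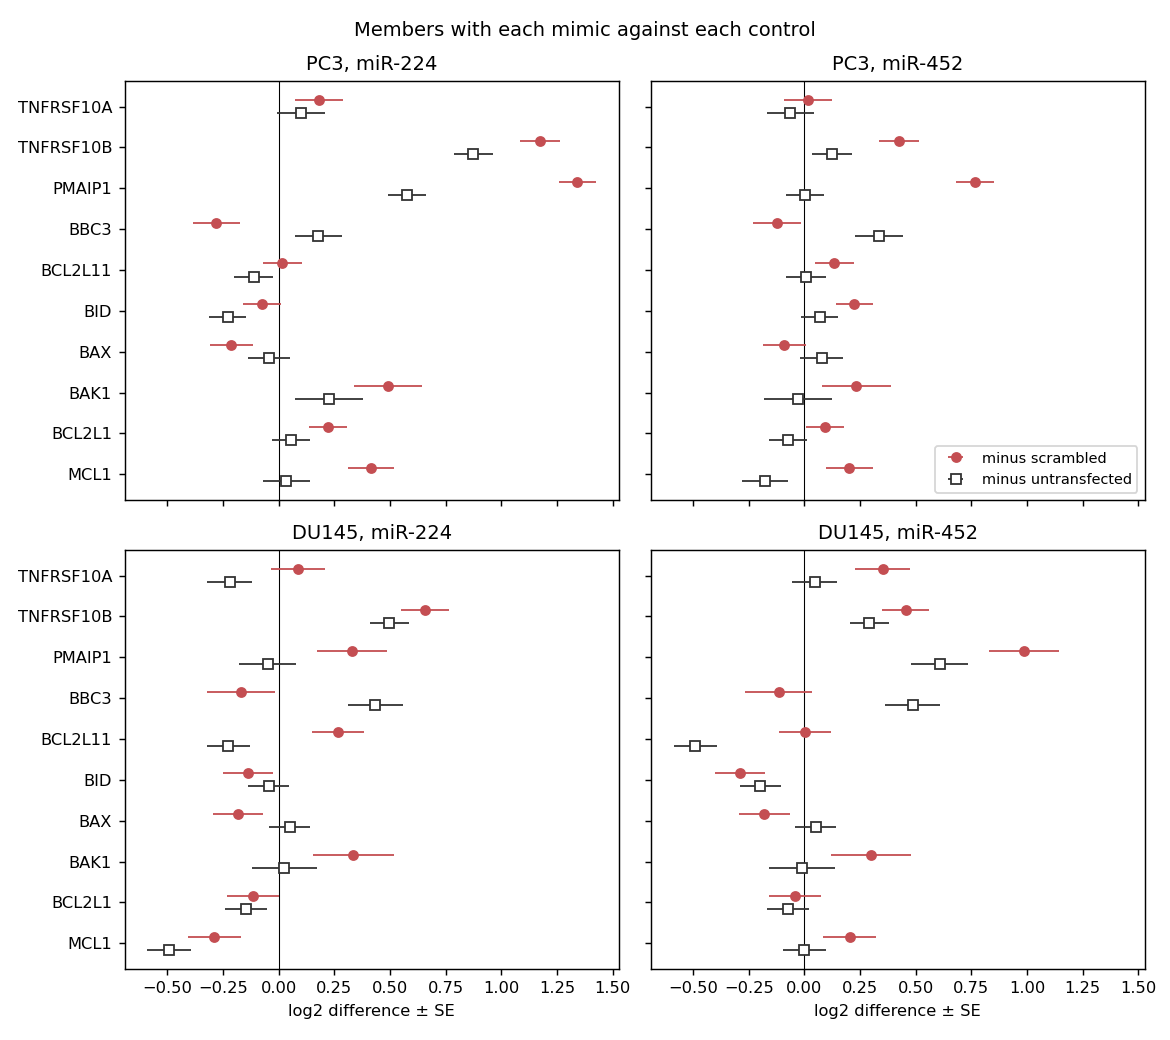
Log2 difference of the 10 members for each mimic and line, with error bars of 1 standard error from limma; filled circles are against the scrambled mimic and open squares against untransfected cells. PMAIP1 with miR-452 in PC3 moves from 0.77 against the scrambled mimic to near 0 against untransfected cells, and BBC3 is below 0 against the scrambled mimic and above 0 against untransfected cells in all 4 panels.

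Counted over the 8 tested members and set beside the share of all 18377 genes that passed, 2 passed with miR-224 against the scrambled mimic in PC3, where 16.8% of all genes passed. The members' median difference was 0.10, against -0.01 over all genes. With miR-452 against the scrambled mimic in PC3, limma called 0 of 8 (5.22% of all genes), and 1, BID, had an unadjusted p under 0.05. In DU145 limma called 0 of 8 with miR-224 (1.94% of all genes) and 0 of 8 with miR-452 (2.10%) against the scrambled array, and 2 members in each had an unadjusted p under 0.05: BCL2L11 and MCL1 with miR-224, and BID and TNFRSF10A with miR-452. Against untransfected cells limma called 0 of 8 with miR-224 in PC3 (9.69% of all genes; BID had an unadjusted p under 0.05), 1 with miR-452 in PC3 (22.2%), 2 with miR-224 in DU145 (21.0%) and 2 with miR-452 in DU145 (28.2%). The scrambled mimic against untransfected cells gave 2 calls in PC3 (14.2% of all genes) and 2 in DU145 (11.8%). The mimics against each other gave 1 call in PC3 (18.5%) and 1 in DU145 (5.91%). The difference between lines was called by limma for 0 of 8 with miR-224 (1.15% of all genes) and 0 of 8 with miR-452 (0.620%). There MCL1 and BCL2L1 with miR-224, and BID with miR-452, had an unadjusted p under 0.05. The share of all genes at an unadjusted p under 0.05 was not counted, so counts at that threshold have no background beside them.

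Interferon response genes stood apart in the PC3 miR-452 arrays. Of the 9 interferon genes listed (IFI44, IFI44L, IFIT1, IFIT2, IFIT3, ISG15, MX1, OAS1 and OAS2), 8 were higher than with the scrambled mimic, with a median difference of 1.41. Against untransfected cells 9 were higher, with a median of 0.92. Of all genes, 5.22% and 22.2% were called in these comparisons, in either direction. The median level of the list was 8.50 and 8.63 on the miR-452 arrays, against 7.24 to 7.70 on the other 6 PC3 arrays. With miR-224 in PC3, and with either mimic in DU145, limma called 0 of the 9 as higher than with the scrambled mimic; at an unadjusted p under 0.05 the counts were 1 with miR-224 in PC3, and 0 with miR-224 and 1 with miR-452 in DU145. Some interferon genes were called lower: 2 of the 9 with miR-224 against the scrambled mimic and 4 against untransfected cells in PC3, and, against untransfected DU145 cells, 5 with miR-224, 3 with miR-452 and 4 with the scrambled mimic. Of all genes, the share called in either direction was 16.8% and 9.69% in these PC3 comparisons. In DU145 it was 21.0%, 28.2% and 11.8% in the same order. PMAIP1 and TNFSF10 are also known to respond to interferon or to double-stranded RNA, and the part of the interferon response in the PC3 miR-452 values was not tested.

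Around the members, 53 of 61 other genes listed for these routes were measured. With miR-224 against the scrambled mimic in PC3, 6 were higher and 4 lower, a share of 18.9% beside 16.8% of all genes. Among the death receptors and their ligands, FAS, the receptor for FAS ligand, rose by 0.48 ± 0.079 (adjusted p = 0.00198), from 6.29 and 6.35 to 6.82 and 6.78, and was the 1 gene to pass of 8 measured. Of 6 genes of the apoptosome and caspases, APAF1, the scaffold that activates CASP9, rose by 0.39 ± 0.09 (adjusted p = 0.0125) and CASP9 by 0.43 ± 0.11 (adjusted p = 0.0235), whereas HTRA2, a mitochondrial protease that opposes inhibitors of apoptosis, was lower (-0.45 ± 0.087, adjusted p = 0.00487). Of the 6 genes MDM2, CDKN1A, GDF15, SESN1, ZMAT3 and TP53INP1, listed as 1 group, MDM2, a ubiquitin ligase, rose by 0.68 ± 0.081 (adjusted p = 0.00035), from 9.44 and 9.40 to 10.16 and 10.06, and ZMAT3, a zinc finger protein that binds RNA, by 0.54 ± 0.13 (adjusted p = 0.0134). The other calls were BAD (-0.42 ± 0.09, adjusted p = 0.00842), a BH3-only gene, E2F1 (-0.36 ± 0.082, adjusted p = 0.0106), USP9X, which removes ubiquitin from MCL1 (0.29 ± 0.083, adjusted p = 0.0322), and DIABLO (-0.27 ± 0.08, adjusted p = 0.0409), an antagonist of inhibitors of apoptosis that was named after its values were seen.
The calls of FAS and MDM2 held in all 14 alternatives. In PC3 the FAS level in untransfected cells (6.39 and 6.47) and with the scrambled mimic lay within the range of the leukocyte and endothelial markers. Its control signal was therefore not shown to lie above background. The other named calls each depended on single PC3 arrays. Without scrambled array c, CASP9 fell to 0.24, APAF1 was 0.38 and ZMAT3 0.47; without scrambled array b, E2F1 was -0.32; without miR-224 array a, CASP9 was 0.41 and E2F1 -0.30; and without miR-224 array b, APAF1 was 0.31, CASP9 0.44, ZMAT3 0.50, BAD -0.37 and HTRA2 -0.41, all with the call lost. USP9X lost its call without any 1 of these 4 arrays (0.27 to 0.31) and after quantile normalization (0.21). DIABLO lost its call without any 1 of the scrambled, miR-224 or miR-452 arrays (-0.31 to -0.22). Over untransfected PC3 cells the differences with miR-224 were 0.37 ± 0.079 for FAS (adjusted p = 0.0126) and 0.31 ± 0.081 for MDM2 (adjusted p = 0.0338), and both passed there. These calls were lost without untransfected array b or either miR-224 array (0.34 to 0.39 for FAS and 0.26 to 0.36 for MDM2), and that of MDM2 also without untransfected array c (0.26).

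With miR-452 against the scrambled mimic in PC3, 3 of the 53 genes were higher and 3 lower (11.3%, beside 5.22% of all genes). FAS rose by 0.40 ± 0.079 (adjusted p = 0.012) to 6.78 and 6.67, and TNFSF10, the gene of TRAIL, which ligates the receptors described above, by 0.29 ± 0.074 (adjusted p = 0.0434). TNFSF10 read 5.86 and 5.86 with the scrambled mimic and 6.19 and 6.12 with miR-452, within the range of the leukocyte and endothelial markers, and it was left out by the filter on low levels, so its signal was not shown to lie above background. BCL2A1, a guardian, rose by 0.45 ± 0.10 (adjusted p = 0.0301). GDF15, a stress-induced cytokine, was lower (-0.83 ± 0.096, adjusted p = 0.000445), as was TP53INP1 (-0.69 ± 0.079, adjusted p = 0.000445), together with ATF4. GDF15 read 8.24 and 8.27 in untransfected PC3, 9.05 and 8.97 with the scrambled mimic and 8.31 and 8.04 with miR-452, so the miR-452 arrays overlapped those of untransfected cells (-0.08, adjusted p = 0.555). TP53INP1 was lower than in untransfected cells too (-0.53 ± 0.079, adjusted p = 0.00133). The GDF15 and TP53INP1 calls against the scrambled mimic held in all 14 alternatives. TNFSF10 was called in 3 of 13, and its call was lost without any 1 of the 8 PC3 arrays (0.26 to 0.33). FAS was lost without scrambled array b or miR-452 array b, where its difference was 0.37 and 0.35, and BCL2A1 without either scrambled array (0.40 and 0.49) or miR-452 array c (0.34).

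In DU145 against the scrambled array, MDM2 alone of the 53 genes passed with each mimic (1.89%, beside 1.94% of all genes with miR-224 and 2.10% with miR-452): 0.61 ± 0.11 with miR-224 (adjusted p = 0.0264) and 0.52 ± 0.11 with miR-452 (adjusted p = 0.0459). MDM2 read 9.52 and 9.53 in untransfected cells, 8.97 on the scrambled array, 9.63 and 9.52 with miR-224, and 9.43 and 9.55 with miR-452. The mimic arrays were level with untransfected cells (0.05, adjusted p = 0.692, and -0.03, adjusted p = 0.789), so both calls rest on the 1 scrambled array, which lay below every other DU145 array. They were also lost without either untransfected or either miR-224 array, with differences of at least 0.53 and 0.45.

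The scrambled mimic against untransfected cells gave 3 higher and 3 lower of the 53 genes in PC3 (11.3%, beside 14.2% of all genes) and 1 higher and 8 lower in DU145 (17.0%, beside 11.8%). In PC3 GDF15 was higher (0.75 ± 0.096, adjusted p = 0.00205), as was BMF, a BH3-only gene (0.37 ± 0.093, adjusted p = 0.0254), and MDM2 was lower (-0.37 ± 0.081, adjusted p = 0.0154). BIRC5, the inhibitor of apoptosis known as survivin, was lower in PC3 (-0.41 ± 0.083, adjusted p = 0.0117), and FOXO3, a stress-responsive transcription factor, was higher (0.32 ± 0.093, adjusted p = 0.0432). CFLAR, the gene of FLIP, which blocks caspase 8 at the receptors, was lower in PC3 (-0.34 ± 0.093, adjusted p = 0.0354) and in DU145 (-0.66 ± 0.12, adjusted p = 0.0187). In DU145 MDM2 (-0.56 ± 0.11, adjusted p = 0.0209), ZMAT3 (-0.68 ± 0.12, adjusted p = 0.0182), and MARCHF5, HUWE1 and USP9X, which govern the turnover of MCL1 or NOXA (-0.55, -0.50 and -0.53), were lower, as were the inhibitors of apoptosis BIRC2 (-0.50) and BIRC5 (-0.38), and BMF was higher (0.41 ± 0.11, adjusted p = 0.0451). In PC3 the GDF15 call held in all 14 alternatives, while those of BMF (0.27), CFLAR (-0.21) and MDM2 (-0.32) were lost without untransfected array b. They were also lost without scrambled array c (0.45, -0.31 and -0.35), and those of BMF (0.29) and CFLAR (-0.37) without scrambled array b. The call of MDM2 was also lost after quantile normalization (-0.23). BIRC5 lost its call in PC3 without untransfected array b (-0.49) or scrambled array c (-0.42) and after quantile normalization (-0.27), and FOXO3 without any 1 PC3 array other than untransfected array c (0.20 to 0.39) and after quantile normalization (0.23). In DU145 all 9 calls were lost without either untransfected array, with differences between -0.72 and -0.33 for the genes that were lower and of 0.39 and 0.43 for BMF. Those of BMF, BIRC2 and BIRC5 were also lost without either miR-224 array. Quantile normalization ended the DU145 calls of BMF (0.28), CFLAR (-0.52), ZMAT3 (-0.55), MARCHF5 (-0.37), USP9X (-0.36), BIRC2 (-0.34) and BIRC5 (-0.24).
With miR-224 against untransfected PC3 cells, 5 of the 53 genes were higher and 6 lower (20.8%, beside 9.69% of all genes). GDF15 (0.91 ± 0.096) was higher and HTRA2 (-0.59 ± 0.087) lower, both in all 14 alternatives. BMF (0.45) and PPP1R15A, which restores translation after stress (0.47), were higher beside FAS and MDM2. BAD (-0.36), DIABLO (-0.32), BIRC5 (-0.36), E2F1 (-0.47) and, at a level not shown to be above background, TNFSF10 (-0.28) were lower. DIABLO (-0.37 to -0.27) and TNFSF10 (-0.30 to -0.27) lost their calls without any 1 of the untransfected or miR-224 arrays. BAD lost its call without untransfected array c or either miR-224 array (-0.40 to -0.26), BMF without untransfected array b or miR-224 array b (0.35 and 0.43), and BIRC5 without untransfected array c or miR-224 array b (-0.29 and -0.31). PPP1R15A was lost without untransfected array c or miR-224 array b (0.38 and 0.365), and E2F1 without untransfected array b or miR-224 array a (-0.42 and -0.40). Quantile normalization ended the calls of BAD (-0.29) and BIRC5 (-0.29).
With miR-452 against untransfected PC3 cells, 6 were higher and 7 lower (24.5%, beside 22.2% of all genes). BIRC5 (-0.52), ATF4 (-0.55) and TP53INP1 were lower in all 14 alternatives. BMF (0.41), the guardians BCL2 (0.31) and BCL2A1 (0.36), XAF1, an antagonist of XIAP (0.31), FAS (0.30) and FASLG, the ligand of FAS (0.30), were higher. APAF1 (-0.40), CFLAR (-0.35), BTRC, a ubiquitin ligase subunit (-0.35), and ZMAT3 (-0.71) were lower. BCL2, XAF1 and FASLG lay between 5.58 and 6.54 on all arrays, within the range of the leukocyte and endothelial markers, as did FOXO3 (5.95 to 6.65), and their signal was not shown to lie above background. The calls of these 10 higher or lower genes were all lost without untransfected array b, with differences of 0.22 to 0.45 for the higher and -0.67 to -0.22 for the lower genes. Those of BCL2, XAF1, FAS, FASLG, CFLAR and BTRC were also lost without either miR-452 array (0.23 to 0.38, and -0.38 to -0.31), that of BMF without miR-452 array b (0.37), that of APAF1 without miR-452 array c (-0.36), that of BCL2A1 without untransfected array c (0.26) or miR-452 array c (0.25), and that of FASLG without untransfected array c (0.32) or either miR-224 array (0.30). Quantile normalization ended the calls of BCL2 (0.21), BCL2A1 (0.35), XAF1 (0.19), FAS (0.21), FASLG (0.19) and BTRC (-0.20).
With miR-224 against untransfected DU145 cells, 1 was higher and 9 lower (18.9%, beside 21.0% of all genes). BMF (0.47) was higher. On the DU145 arrays BMF (6.06 to 6.62) and CASP6 (5.63 to 6.02) lay within the range of the leukocyte and endothelial markers. Their signal in the DU145 comparisons was therefore not shown to lie above background. The caspases CASP9 (-0.30) and CASP6 (-0.31), DIABLO (-0.33), BIRC2 (-0.46), CFLAR (-0.44 ± 0.098, adjusted p = 0.0145), MARCHF5 (-0.48), BTRC (-0.42), CDKN1A (-0.44) and ZMAT3 (-0.46) were lower. All 10 calls were lost without either untransfected array (0.45 and 0.49 for BMF, and -0.51 to -0.26 for the lower genes). All but CDKN1A were lost without miR-224 array c (0.39 for BMF, and -0.49 to -0.31), and CASP9, CASP6, DIABLO, BTRC and CDKN1A without miR-224 array a (-0.35 to -0.24). Quantile normalization ended the calls of CASP9 (-0.18), DIABLO (-0.15), BIRC2 (-0.28), CFLAR (-0.28), BTRC (-0.23), CDKN1A (-0.28) and ZMAT3 (-0.30), and moved MARCHF5 to -0.29 with its call kept.
With miR-452 against untransfected DU145 cells, 3 were higher and 11 lower (26.4%, beside 28.2% of all genes). CFLAR (-0.66 ± 0.098, adjusted p = 0.00327), BIRC2, an inhibitor of apoptosis that acts at death receptors (-0.67 ± 0.11, adjusted p = 0.00413), and ZMAT3 (-0.64) were lower in all 14 alternatives. BMF (0.39), HRK, a BH3-only gene (0.46), and TRADD, a death receptor adaptor (0.27), were higher, and CASP9 (-0.40), CASP6 (-0.29), BIRC5 (-0.46), HUWE1 (-0.42), USP9X (-0.40), BTRC (-0.44) and ATF4 (-0.41) were lower. These 10 calls were lost without either untransfected array (0.23 to 0.55, and -0.51 to -0.29). Those of BMF (0.34), HRK (0.32), TRADD (0.24), CASP6 (-0.19), USP9X (-0.29), BTRC (-0.28) and ATF4 (-0.36) were also lost without miR-452 array a, and those of CASP6 and TRADD without either miR-224 array. Quantile normalization ended the calls of CASP9 (-0.25), BIRC5 (-0.24), HUWE1 (-0.24), USP9X (-0.17), BTRC (-0.21) and ATF4 (-0.16).

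Set against each other in PC3, miR-224 gave 9 higher and 6 lower of the 53 genes than miR-452 (28.3%, beside 18.5% of all genes). GDF15 (0.99 ± 0.096, adjusted p = 5.67e-05), ZMAT3 (0.97 ± 0.13, adjusted p = 0.000389), APAF1 (0.68 ± 0.09, adjusted p = 0.000389) and TP53INP1 (0.57 ± 0.079, adjusted p = 0.000552) were higher with miR-224, and TNFSF10 (-0.49 ± 0.074, adjusted p = 0.000963) and BCL2A1 (-0.50 ± 0.10, adjusted p = 0.00605) were lower, TNFSF10 again at a level not shown to be above background (5.67 and 5.67 with miR-224). HTRA2 (-0.49), BAD (-0.39), TRIB3, a stress-induced pseudokinase (-0.28), and E2F1 (-0.30) were also lower with miR-224, and BIRC2 (0.32), CFLAR (0.30), USP9X (0.40) and ATF4 (0.41) higher. Of these, BCL2A1 lost its call without miR-224 array a or miR-452 array c (-0.40 and -0.39), BAD without miR-224 array b or miR-452 array c (both -0.34), ATF4 without the same arrays (0.31 and 0.38) and USP9X without miR-452 array c (0.35). TRIB3 (-0.30 to -0.26), E2F1 (-0.37 to -0.23), BIRC2 (0.29 to 0.35) and CFLAR (0.25 to 0.34) lost theirs without any 1 of the 4 mimic arrays, and BIRC2 also after quantile normalization (0.24). In DU145 CDKN1A, which encodes the cell cycle inhibitor p21, was the 1 gene called (1.89%, beside 5.91% of all genes), lower with miR-224 (-0.59 ± 0.13, adjusted p = 0.0292), and its call was lost without miR-224 array a (-0.40) or miR-452 array c (-0.48). Limma called 0 of the 53 as different between the lines for either mimic over the scrambled control. At an unadjusted p under 0.05 there were 2 with miR-224 and 9 with miR-452, and the share of all genes at that threshold was not counted.

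**Figure D4:**
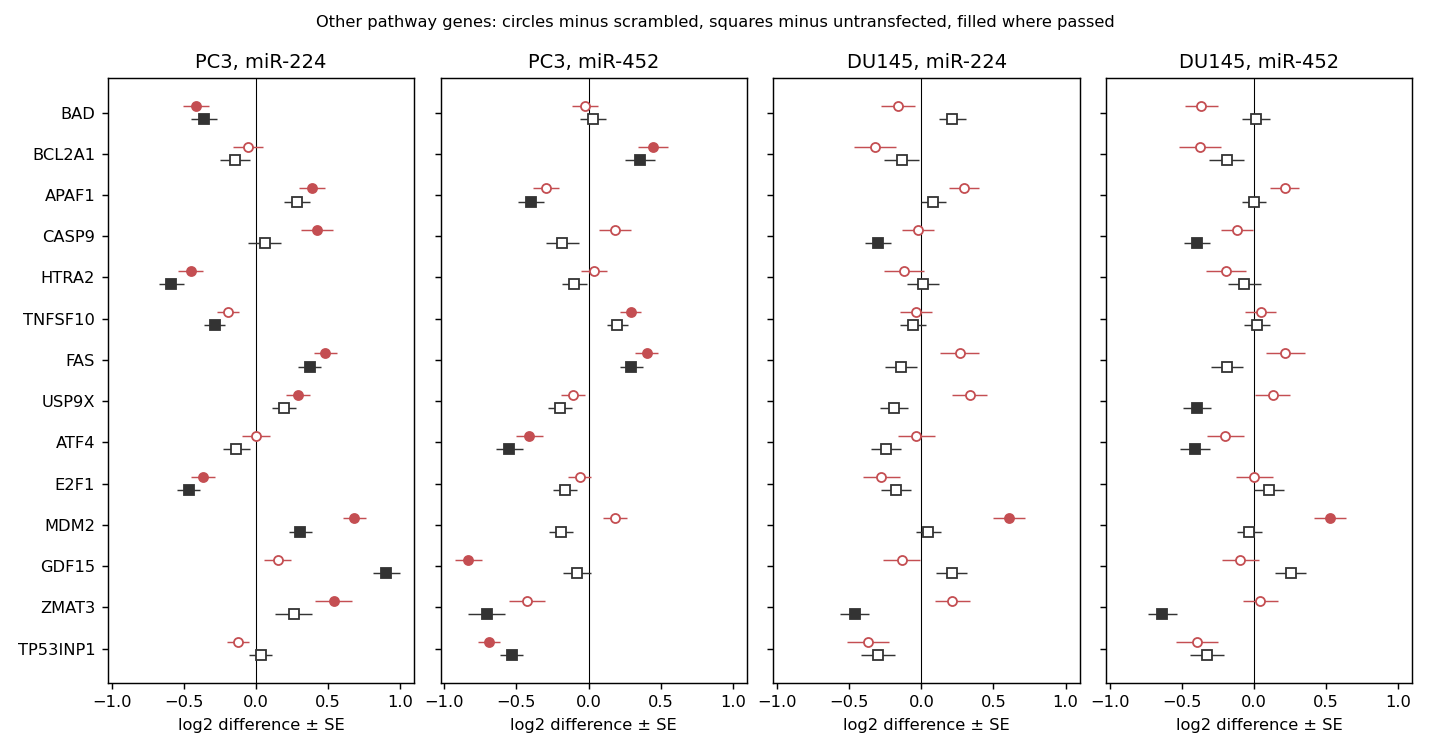
Log2 differences ± 1 standard error of 14 other pathway genes for each mimic and line, as circles against the scrambled mimic and squares against untransfected cells, filled where the limma adjusted p was under 0.05. FAS and MDM2 are filled against both controls with miR-224 in PC3, while MDM2 in DU145 is filled against the scrambled array and near 0 against untransfected cells.

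The genes most like PMAIP1 over the 15 arrays, after each line's mean was subtracted, were ELL2 (r = 0.92), RAB12 (0.91), ATP13A3 (0.91), FAM136A (0.90) and EDEM3 (0.89). Those most like TNFRSF10B were SRPRA (0.95), IGF2BP3 (0.95), GLIS3 (0.94), TPRG1L (0.94) and HECTD3 (0.94). PMAIP1 and TNFRSF10B correlated with each other at r = 0.77, which ranked 115 in the list of PMAIP1 and 187 in that of TNFRSF10B. With TNFRSF10B, BAK1 had r = 0.68 and TNFRSF10A 0.35. These values describe arrays that share treatments, controls and normalization.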

How the data were processed

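RNA of 15 array samples was measured. Per the labels' design text, the authors summarised the signals as log2 levels by RMA16 in GeneSpring GX 11.0 and normalized each line by itself before they deposited them. The option is understood to add 16 before the logarithm, which was not stated; if so, folds of weak genes are understated. Genome build and probe set definition are not given in the sources used here. Of 28869 features, the 19310 with 1 gene symbol were averaged per symbol into 18377 genes with no filter, after symbols were updated through Entrez numbers (19279 matched). Each line was fitted in limma 3.58.1 (R 4.3.3) with 4 group means, and the difference between lines in a fit of all 15 arrays with 8. The lone DU145 scrambled array was assumed to vary like the other DU145 groups. All tests were two-sided, with p adjusted by Benjamini-Hochberg over all genes of a comparison and a threshold of 0.05. Precision is limited by the number of arrays: the fits left 4 (PC3), 3 (DU145) and 7 (both lines) residual degrees of freedom. The fit was tested on simulated data.

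The members and lists were chosen with earlier results of these data known. Named were all members, up to 3 called genes of each role with the smallest p, and the 5 genes most like PMAIP1 and TNFRSF10B. Of the listed pathway genes, BCL2L2, BIRC3, TNFRSF10C, RIPK1 and BTG2, among others, were not analysed here. Replicate letters were not taken to pair the arrays. The labels do not say whether they do, and so few arrays could not settle it.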

Additional observations from a re-analysis of the deposited data

Results flagged for a closer look

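For 3 members, all arrays of a mimic lay on 1 side of the scrambled arrays in PC3 and on the opposite side in DU145. The same pattern held for 11.4% of all 18377 genes with miR-224, where 2 of the 10 members showed it, and for 7.63% with miR-452, where 1 did. With miR-224, MCL1 differed from the scrambled mimic by 0.41 in PC3 and by -0.29 in DU145, a difference between lines of 0.70 ± 0.17 (limma adjusted p = 0.0566). With miR-224, BCL2L1 differed by 0.22 and by -0.12, a difference between lines of 0.34 ± 0.14 (adjusted p = 0.323). With miR-452, BID differed by 0.22 and by -0.29, a difference between lines of 0.52 ± 0.14 (adjusted p = 0.123). None of the 3 differences between lines passed, and all rest on the 1 scrambled array of DU145.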

How the results depend on the processing

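Counts are of the 8 tested members that passed. With each feature tested by itself, the count was 0 in place of 2 for miR-224 against scrambled and for scrambled against untransfected in PC3, 0 in place of 1 for miR-452 against untransfected and for miR-224 against miR-452 in PC3, 1 in place of 2 for miR-224 and for miR-452 against untransfected in DU145, 0 in place of 2 for scrambled against untransfected in DU145, and 0 in place of 1 for miR-224 against miR-452 in DU145. With all 15 arrays in 1 fit it was 1 in place of 2 for miR-224 against scrambled and 0 in place of 1 for miR-452 against untransfected, both in PC3. After quantile normalization it was 1 in place of 2 for miR-224 against untransfected and 0 in place of 2 for scrambled against untransfected, both in DU145. For the difference between lines with miR-224 it was 1 (MCL1) in place of 0 with low levels left out, with quantile normalization and with trend and robust moderation. Otherwise the counts kept within 1.5 times, and no called member changed sign. The members behind a count could still change. After quantile normalization, miR-224 against scrambled in PC3 lost BAK1 and gained BBC3 and BAX. Scrambled against untransfected in PC3 lost MCL1 and gained BAX. For the 53 other pathway genes, 69 of 203 counts under alternatives moved by more than that.

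With 1 array left out, the count ran from 0 to 2 in PC3 for miR-224 against scrambled and scrambled against untransfected, from 0 to 1 for miR-452 against untransfected and miR-224 against miR-452, and stayed at 0 for the other PC3 comparisons. In DU145 it ran from 0 to 2 for miR-224, miR-452 and scrambled against untransfected and from 0 to 1 for miR-224 against miR-452. It ran from 0 to 1 for the difference between lines with miR-224 and stayed at 0 with miR-452. Comparisons with the DU145 scrambled array could not be made without it.

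Replicate letters as a block (replicate block) gave 0 in place of 2 for miR-224 against scrambled in PC3, 0 in place of 1 for miR-452 against untransfected and for miR-224 against miR-452 in PC3, and 0 in place of 2 for miR-224, miR-452 and scrambled against untransfected in DU145. The labels do not say that a letter marks a shared culture or day. Deviations of arrays with the same letter correlated at -0.15 to 0.27 over 9 pairs in PC3 and at -0.31 to 0.05 over 4 pairs in DU145, which hold 6 and 3 distinct values because 2 arrays of a group deviate as mirror images, so the letters were not taken to pair the arrays. A block with the DU145 miR-452 letters crossed, chosen after the data were seen, left the counts of the 6 DU145 comparisons at 0, 0, 2, 2, 2 and 1.

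The number of arrays, 2 or 1 a group, limits the precision, and calls near the threshold depend on single arrays.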
